A study of Homo sapiens with 6 samples.

Results

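The ICAM ligands and the leukocyte integrins that bind them or sit beside them on the B cell surface were followed in BL-2 cells, a line established from Burkitt lymphoma, a tumour of B cells that resemble those of the germinal centre. The 8 genes are ICAM1, ICAM2 and ICAM3 and the integrin chains ITGAL, ITGB2, ITGA4, ITGB1 and ITGB7. They were taken as all probe sets whose platform annotation gives exactly 1 gene symbol, equal to one of these names. This gave 23 of the 54613 probe sets tested, standing for 8 of 19775 genes. ITGB1 had 7 probe sets, ITGA4 had 4, ICAM1 and ITGB2 had 3 each, ICAM2 and ITGAL had 2 each, and ICAM3 and ITGB7 had 1 each. The genes were chosen by name and not by their values, but with earlier results of these data known.

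The study set 3 arrays of BL-2 cells given lipopolysaccharide (LPS), an outer membrane component of Gram-negative bacteria, for 6 h against 3 arrays of BL-2 cells with no treatment. No dose of LPS is given in the labels, which also do not say whether the 3 samples of a group were separate cultures. All p-values therefore rest on how far these samples scatter, and part of that scatter may be technical. The model is 1 cell line, so it stands for 1 tumour clone.

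ICAM1, ICAM2 and ICAM3 are immunoglobulin-type surface proteins and ligands of LFA-1, the integrin made of the alpha chain CD11a (ITGAL) and the beta chain CD18 (ITGB2). ITGA4 pairs with ITGB1 to form VLA-4, which binds VCAM-1 and fibronectin, and with ITGB7 to form the gut homing integrin that binds MAdCAM-1. In B cells these pairs hold the cell to T cells, follicular dendritic cells and vessel walls, and ICAM1 is a textbook target of NF-kB in many cell types.

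One stretch of DNA is shown because ICAM1 had the single passing probe set among the 8 genes and its start region holds a textbook NF-kB site. It is the RefSeq window from 250 bases before to 50 bases after the start of ICAM1, GRCh38.p14, chr19:10270870-10271169, plus strand. The capitals mark, from left to right, a 9-letter form of the NF-kB motif and a GAS element, the motif of STAT factors.
ICAM1: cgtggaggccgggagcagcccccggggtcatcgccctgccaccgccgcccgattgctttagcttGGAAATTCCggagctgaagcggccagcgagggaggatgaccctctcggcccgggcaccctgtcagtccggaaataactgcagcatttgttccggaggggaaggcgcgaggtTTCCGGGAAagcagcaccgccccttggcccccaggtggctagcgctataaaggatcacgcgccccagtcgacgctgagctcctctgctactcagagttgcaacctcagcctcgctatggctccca

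The 9-letter form was searched as GGAANTTCC on both strands and was written with the ICAM1 window in view. In ICAM1 it is GGAAATTCC, from position -186 to -178 counted from the start of the gene. Of 35116 RefSeq windows of 300 bases, 0.965% held that form. The GAS element, searched as TTCNNNGAA, is TTCCGGGAA in ICAM1 from -75 to -67, and 7.66% of windows held one. A TATA box, searched as TATAAA, lies from -30 to -25 on the strand of the gene, and 11.5% of windows held one on either strand. GC boxes, searched as GGGCGG and present in 45% of windows, had 2 matches in ICAM1, 2 in the third window of ICAM3 and 3 in the first of ITGB1. The longer standard form of the motif, the NF-kB decamer, was found in 14% of windows. It had 0 matches in the ICAM1 window and 1 match each in the first of 3 windows of ICAM3 and the first of 2 windows of ITGB1, both reading GGGAGGCCCC. The single windows of ITGA4 and ITGB7 held 0 matches of either NF-kB form and of the GAS element. The ETS core (CCGGAAG) and the RUNX core (TGTGGT), held by 10.3% and 13.1% of windows, had 0 matches in the 8 windows of these genes. The 9-letter form cannot itself hold a decamer. These matches describe letters in a window and were not tested as binding sites. RefSeq windows were at hand for 5 of the 8 genes.

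The arrays as a whole set the scale for reading the values. The deposited values were taken as log2 and ran from 5.46 to 14.81, with array medians of 6.42 to 6.47. No detection calls were used, and 9 of the 23 probe sets had a mean under 7. Each probe set has its own scale, so the tests compare groups and not genes. Levels of different genes are set side by side only as a rough guide. Correlations between arrays were 0.992 to 0.997. The mean of the hybridisation controls, transcripts added to each array, parted the arrays into 2 sets. Set A held LPS 1, LPS 2 and control 1, and set B held LPS 3, control 2 and control 3. Differences within the sets, LPS minus control, are given where a result touches them. Markers placed the cells as labelled: the 7 measured B cell markers had mean levels of 8.33 to 13.02. The 8 T and NK cell markers lay at 5.87 to 6.53 and the 7 measured monocyte markers at 5.99 to 6.69. Averaged over the B cell markers the arrays lay at 10.31 to 10.40 after LPS and 10.29 to 10.45 in controls. Of the 7, 0 passed the limma test, against 0.389% of all genes by their brightest probe sets. An unadjusted p under 0.05 was found for 2 of the 7, against 9.56% of all genes. Both were lower after LPS with no overlap of the groups, as were 1542 of the 19775 genes. CD79A, a signalling chain of the B cell receptor, was at -0.38 (limma adjusted p = 0.133), with -0.39 and -0.31 in sets A and B, and passed with array set as a block (adjusted p = 0.0103). CD22, an inhibitory receptor of B cells, was at -0.20 (limma adjusted p = 0.554). The part of these markers in the results for the 8 genes was not tested. Averaged over the T and NK cell markers the arrays lay at 6.25 to 6.28 after LPS and 6.22 to 6.33 in controls. For the monocyte markers they lay at 6.20 to 6.24 after LPS and 6.22 to 6.26 in controls.

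Across the 8 genes the LPS and control cells differed by little. In the limma test over all probe sets, with adjustment over all of them, 1 of the 23 passed, a rise of ICAM1. Of all tested probe sets 0.264% passed, 0.13% higher and 0.134% lower. At an unadjusted p under 0.05 there were 8 of the 23, against 8.08% of all probe sets. These 8 were the 3 probe sets of ICAM1, both of ICAM2, both of ITGAL and 1 of ITGA4. Probe sets of 1 gene can read the same transcripts, so they do not count as separate results. The LPS and control values did not overlap in 6 of the 23, against 13.4% of all tested probe sets. Of these 6, 1 was higher after LPS (7.0% of all probe sets) and 5 were lower (6.38% of all). The median difference over the 23 was -0.05 on the log2 scale, and over all tested probe sets 0.0029. Standard errors ran from 0.044 to 0.12 among the 23.

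**Figure D1:**
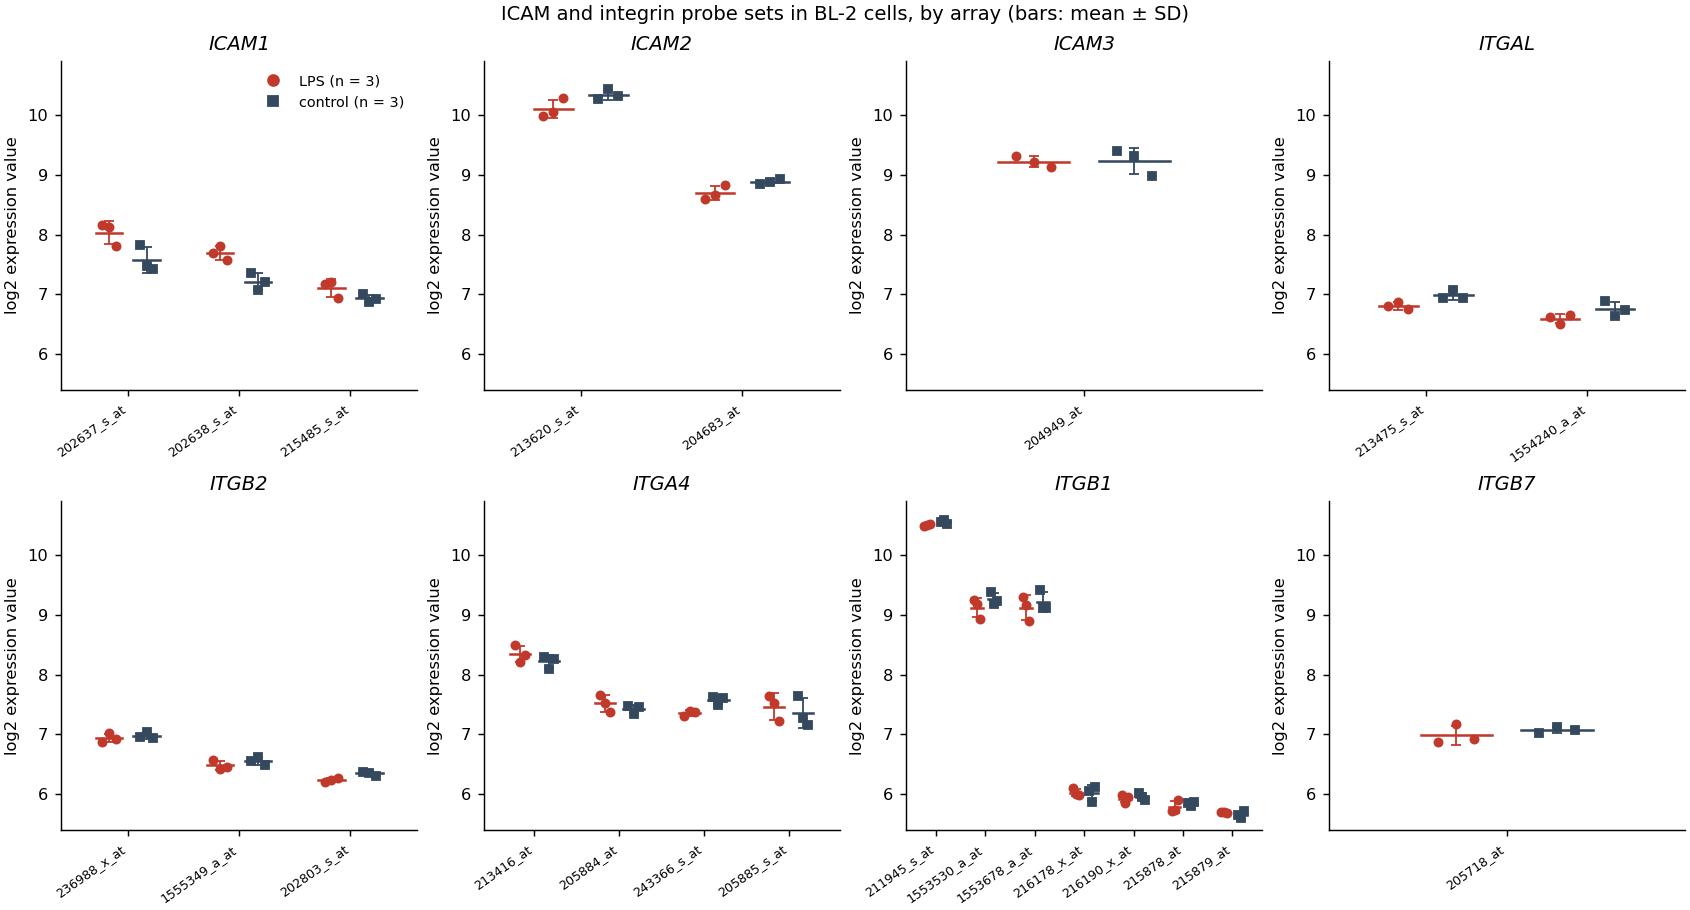
Log2 expression value (y axis) of every probe set (x axis, brightest first) of the 8 genes, with LPS arrays as red circles and control arrays as blue squares; horizontal lines are means and bars are SD (n = 3 each). ICAM1 probe set 202638_s_at has all LPS values, 7.57 to 7.80, above all control values, 7.07 to 7.36, and 4 ITGB1 probe sets lie near the lower end of the arrays.

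ICAM1, the ICAM that inflammatory signals induce on many cell types, rose after LPS by 1 of its 3 probe sets, and all 3 had positive differences. Probe set 202638_s_at had values of 7.69, 7.80 and 7.57 in the LPS arrays, against 7.36, 7.07 and 7.21 in the control arrays. Every LPS value lay above every control value. The group means were 7.69 ± 0.12 after LPS and 7.21 ± 0.14 in controls (SD, n = 3 each). The difference was 0.48 (SE 0.086, 95% interval 0.29 to 0.66, limma adjusted p = 0.0347), a 1.39-fold higher level, and in order of p it stood at 113 among the 54613 tested.

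The brightest ICAM1 probe set, 202637_s_at, had values of 8.16, 8.12 and 7.81 after LPS, against 7.83, 7.48 and 7.42 in controls. The groups overlapped by the lowest LPS array, LPS 3, which lay just under control 1. The difference was 0.45 (SE 0.11, 95% interval 0.21 to 0.70), 1.37-fold, and did not pass the limma test (adjusted p = 0.159). The dimmest one, 215485_s_at, had 7.18, 7.21 and 6.94 after LPS, against 7.0, 6.88 and 6.92 in controls. Here too LPS 3 lay among the controls, and the difference of 0.17 (95% interval 0.0085 to 0.34) did not pass (limma adjusted p = 0.588). The mean over the 3 probe sets differed by 0.37 (limma adjusted p = 0.107). All 3 carry the suffix _s_at, which marks probes that can match more than 1 transcript, so ICAM1 had 0 probe sets once such probe sets were left out. In RNA from a whole culture, more transcript per cell and more cells that carry the transcript cannot be told apart.

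ICAM1 also differed between the array sets. By 202637_s_at set B lay 0.47 below set A over all arrays whatever their group (a difference of -0.47), by 202638_s_at the difference was -0.34 and by 215485_s_at it was -0.21. Since set A held most LPS arrays and set B most controls, set and treatment overlap in part. Within set A, the LPS arrays minus the lone control gave 0.31 by 202637_s_at and 0.39 by 202638_s_at. Within set B, the lone LPS array minus the controls gave 0.36 and 0.43 by the same probe sets. Both probe sets were thus higher on the LPS side of each set. For 215485_s_at sets A and B gave 0.19 and 0.04. With array set as a block, 202638_s_at differed by 0.41 (limma adjusted p = 0.00221) and 202637_s_at by 0.34 (limma adjusted p = 0.0131). In that fit 1.34% of all tested probe sets passed.

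**Figure D2:**
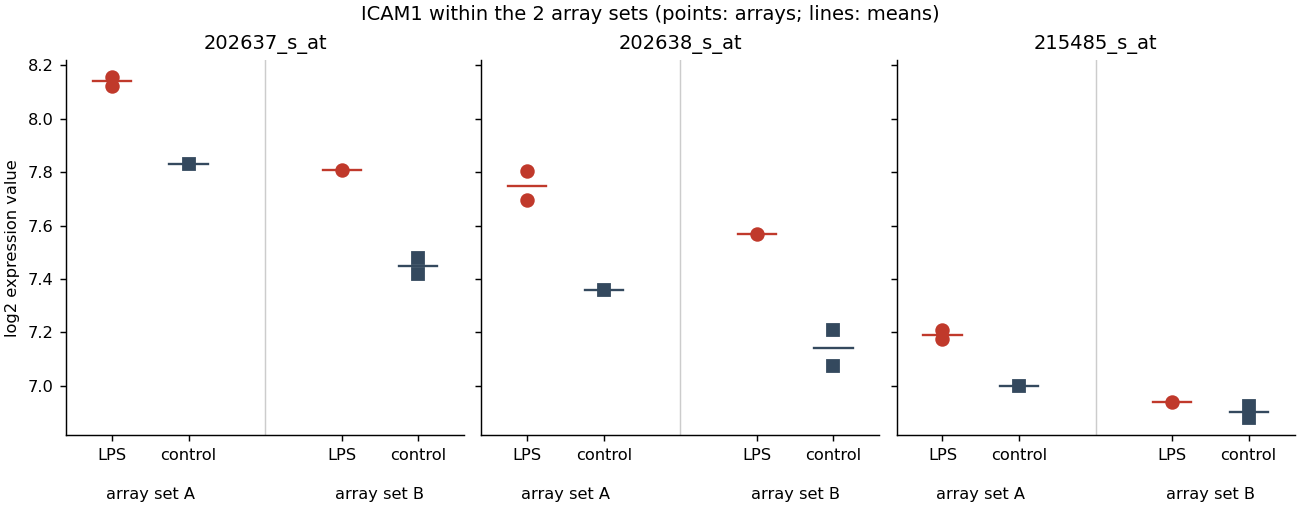
Log2 expression value (y axis) of the 3 ICAM1 probe sets, with LPS arrays (red circles) and control arrays (blue squares) parted by array set (x axis); short lines are means, and set A has 2 LPS arrays and 1 control while set B has 1 LPS array and 2 controls. For 202637_s_at the LPS array of set B, at 7.81, lies at the height of the control of set A, at 7.83, and the LPS side is higher within each set.

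The call for ICAM1 depended on single arrays and on which probe sets were tested, and held in 9 of 15 alternative settings. With dim probe sets left out, by a mean above the median of all or of at least 7, the limma adjusted p of 202638_s_at was 0.0592 and 0.0554. The adjusted p of 202638_s_at was 0.186 without control 2, 0.218 without control 3, 0.163 without LPS 1 and 0.267 without LPS 2, with differences of 0.41 to 0.47. Without control 1 it was 0.00649 and without LPS 3 it was 0.0304. With 1 array left out, 10 to 374 of all tested probe sets passed, against 144 with all 6 arrays. For 202637_s_at, leaving out control 1 gave 0.58 (adjusted p = 0.013), the only one of the 6 arrays whose absence brought that probe set past the threshold. Over the 15 settings the difference of 202638_s_at ran from 0.41 to 0.55.

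The genes whose values ran most like ICAM1 were found by Pearson correlation over the 6 arrays with 202637_s_at, among 926 genes with a mean of at least 7 and a range of at least 0.5. They were JAK3, a kinase of cytokine receptors with the common gamma chain, at r = 0.991, then TWSG1, a secreted modulator of BMP signalling, at r = 0.990, and SLC39A11, a zinc transporter, at r = 0.987. The 6 arrays share the LPS contrast and the array sets, so these values only describe likeness. JAK3 differed by 0.32 between LPS and control arrays (limma adjusted p = 0.214) and by -0.31 between set B and set A. For the other 7 genes the brightest probe set spanned less than 0.5 over the arrays, and no such list was made.

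ICAM1 heads a row of ICAM genes on chromosome 19, in the order ICAM1, ICAM4, ICAM5, ZGLP1, FDX2, RAVER1 and ICAM3 in the RefSeq gene table of GRCh38.p14. ICAM4, the red cell ligand of the family, had a level of 6.02 ± 0.13 after LPS and 6.01 ± 0.062 in controls, below the array medians. ICAM5, the neuronal member, had 6.41 ± 0.070 after LPS and 6.47 ± 0.085 in controls (SD, n = 3 each). Neither passed the limma test, at differences of 0.0079 and -0.06. The gene between them and ICAM3 with the largest difference, FDX2, a mitochondrial ferredoxin, was at 0.23 (limma adjusted p = 0.421).

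ICAM2 had negative differences by both of its probe sets and ICAM3 a difference near 0, and neither gene passed. ICAM2, a ligand of LFA-1 on resting leukocytes, platelets and endothelium, had by its brightest probe set 213620_s_at values of 9.98, 10.05 and 10.28 after LPS, against 10.26, 10.43 and 10.31 in controls. LPS 3 was the highest LPS array and overlapped with control 1. The difference was -0.23 (SE 0.10, 95% interval -0.45 to -0.02) and did not pass (limma adjusted p = 0.577, unadjusted p = 0.0365). Its other probe set, 204683_at, had 8.60, 8.66 and 8.83 after LPS, against 8.85, 8.87 and 8.93 in controls. These values did not overlap, though LPS 3 came close to control 1, and the difference of -0.19 (95% interval -0.37 to -0.0021) did not pass (adjusted p = 0.616). For 213620_s_at sets A and B gave -0.25 and -0.10, and set B minus set A gave 0.24 over all arrays.

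ICAM3, the ICAM of resting leukocytes and the one linked to first contacts with antigen-presenting cells, had 9.31, 9.22 and 9.12 after LPS, against 9.40, 9.31 and 8.98 in controls. The 2 groups lay over each other, with control 1 the highest array and control 3 the lowest. The difference was -0.01 with a 95% interval from -0.25 to 0.22, so changes within those bounds on the log2 scale could not be told from 0 here. Its sign turned in 4 of its 16 alternative settings.

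**Figure D3:**
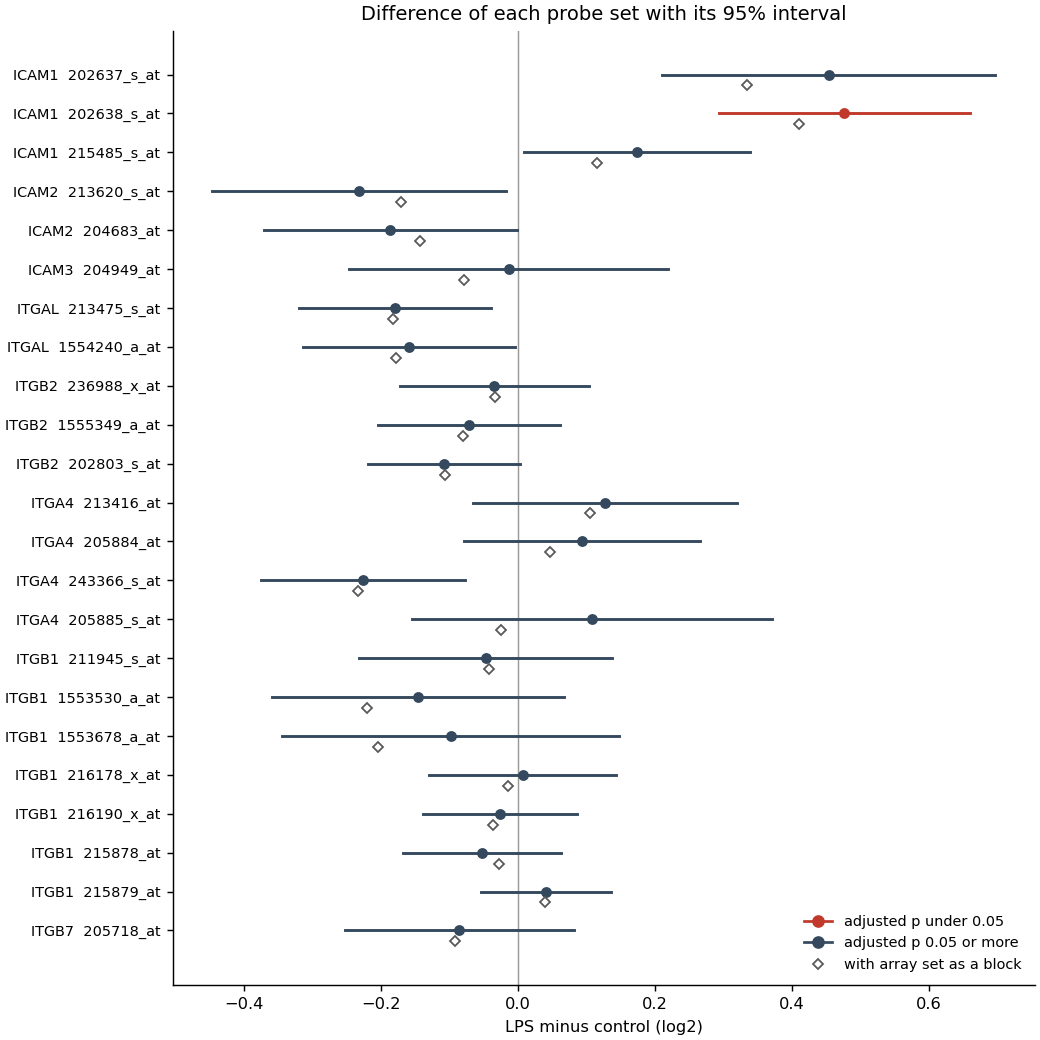
LPS minus control on the log2 scale (x axis) for each of the 23 probe sets (y axis), as points with 95% intervals; red marks the 1 probe set with an adjusted p under 0.05, and open diamonds give the difference with array set as a block. The ICAM1 probe sets lie to the right of 0, the ICAM2 and ITGAL probe sets to its left, and those of ITGA4 on both sides.

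The LFA-1 chains had low values on these arrays, all under 7 in the mean over the 6 arrays. ITGAL, the alpha chain that carries the ICAM binding domain, had by 213475_s_at 6.80, 6.87 and 6.75 after LPS, against 6.94, 7.08 and 6.94 in controls. The LPS values lay below all control values, and the difference was -0.18 (SE 0.065, 95% interval -0.32 to -0.04, limma adjusted p = 0.454). Its other probe set, 1554240_a_at, had 6.63, 6.50 and 6.65 after LPS, against 6.88, 6.63 and 6.74 in controls, with LPS 3 above control 2. It was at -0.16 (adjusted p = 0.604). Neither passed, and both kept a negative sign in the 15 alternative settings run for each. For 213475_s_at sets A and B gave -0.11 and -0.26. For 1554240_a_at they gave -0.32 and -0.04, the larger one against the lone control of set A.

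ITGB2, the beta chain of all CD18 integrins, gave 3 small negative values. Its brightest probe set 236988_x_at had 6.88, 7.02 and 6.92 after LPS, against 6.95, 7.03 and 6.94 in controls, with overlapping groups and a difference of -0.03 (limma adjusted p = 0.943). Probe set 1555349_a_at was at -0.07 (adjusted p = 0.840). Probe set 202803_s_at had 6.21, 6.24 and 6.27 after LPS, against 6.37, 6.36 and 6.31 in controls, without overlap, at a level below the array medians and a difference of -0.11 (95% interval -0.22 to 0.0036, adjusted p = 0.636).

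The VLA-4 and beta7 chains gave values of both signs. ITGA4, the alpha4 chain, had by its brightest probe set 213416_at 8.49, 8.22 and 8.33 after LPS, against 8.29, 8.10 and 8.27 in controls. The groups overlapped, since LPS 2 lay below control 1 and control 3, and the difference was 0.13 (95% interval -0.07 to 0.32, limma adjusted p = 0.789). Probe sets 205884_at and 205885_s_at were at 0.09 and 0.11 (adjusted p = 0.838 and 0.892).

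The fourth ITGA4 probe set went the other way. Probe set 243366_s_at had 7.30, 7.39 and 7.37 after LPS, against 7.63, 7.50 and 7.61 in controls, and the groups did not overlap. Its difference of -0.23 (SE 0.069, 95% interval -0.37 to -0.08) had an unadjusted p of 0.00584 and did not pass the limma test (adjusted p = 0.319). Its interval does not overlap with that of 213416_at. The difference between probe sets was not tested, and the array annotation at hand does not say which part of the transcript each one reads. For 243366_s_at sets A and B gave -0.29 and -0.18. Probe set 205885_s_at had a set B minus set A difference of -0.39, and sets A and B gave LPS differences of -0.05 and 0.0046.

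ITGB1, the beta1 chain shared by many integrins, had the closest replicates of the 8 brightest probe sets. By 211945_s_at the values were 10.49, 10.50 and 10.52 after LPS, against 10.54, 10.58 and 10.52 in controls, with SDs of 0.015 after LPS and 0.033 in controls. They did not overlap, but LPS 3 and control 3 nearly met, and the difference was -0.05 (95% interval -0.23 to 0.14, limma adjusted p = 0.942). The next probe sets, 1553530_a_at and 1553678_a_at, were at -0.15 and -0.10 (adjusted p = 0.777 and 0.898). With array set as a block these were at -0.22 and -0.20, without passing (adjusted p = 0.217 and 0.292). The other 4 ITGB1 probe sets, 216178_x_at, 216190_x_at, 215878_at and 215879_at, lay at means of 5.67 to 6.02, near the lowest values of the arrays, and their differences ran from -0.05 to 0.04.

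ITGB7, the beta7 chain, had 6.87, 7.17 and 6.92 after LPS, against 7.03, 7.12 and 7.07 in controls. LPS 2 was the highest array of all and the other LPS arrays lay below every control, and the difference was -0.09 (95% interval -0.25 to 0.08, limma adjusted p = 0.854). Taken by their brightest probe sets, 0 of the 8 genes passed the limma test and 3 had an unadjusted p under 0.05, against 0.389% and 9.56% of the 19775 genes. With array set as a block 1 of the 8, ICAM1, passed, against 2.02% of genes.

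The wider adhesion machinery was described from 7 lists of other genes, each gene by its brightest probe set. Of 87 measured genes, 1 fell and 0 rose in the limma test, where 0.207% of all genes fell and 0.182% rose, and 10 had an unadjusted p under 0.05, against 9.56% of all genes. The median difference was -0.0049, against 0.0016 over all 19775 genes. The 1 gene was PECAM1, an adhesion molecule of leukocytes, platelets and endothelium that dampens signalling through its cytoplasmic tail. Its probe set 208982_at had 7.08, 7.09 and 7.01 after LPS, against 7.57, 7.56 and 7.50 in controls. The groups were well apart, with a difference of -0.48 (SE 0.065, limma adjusted p = 0.00756), and sets A and B gave -0.48 and -0.52. The other PECAM1 probe sets did not pass. Those at -0.34 and -0.30 had adjusted p of 0.0653 and 0.138, and the remaining pair was at -0.08 and -0.05. The mean over all 5 was -0.25 (adjusted p = 0.0686). The adjusted p of 208982_at was 0.0676 without control 3 and 0.079 without LPS 2. Of the other 7 endothelial markers 0 passed by limma, with 0 at an unadjusted p under 0.05, and their means lay at 5.88 to 6.73.

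Among other ligands and partner chains 0 genes passed. By limma 0 of 10 measured ligand genes passed, among them VCAM1 and MADCAM1 for the alpha4 integrins, with 0 at an unadjusted p under 0.05, 5 above 0 and 5 below. Of these 10, 9 had mean levels under 7, with VCAM1 at 6.07 and MADCAM1 at 6.41. The lowest p belonged to SPP1, which encodes the integrin ligand osteopontin, at -0.16 (limma adjusted p = 0.773), followed by ICAM5 and by CDH1, a cadherin that binds the alphaE integrin, at -0.06. The second probe sets of SPP1 and CDH1 were at 0.07 and 0.05. Of the 4 other alpha chains that pair with CD18 or beta7, 0 passed and 0 had an unadjusted p under 0.05. Mean levels were under 7 for 3 of the 4. ITGAE, the alphaE chain and a beta7 partner, was at 0.10, ITGAD at 0.04 and ITGAM at -0.04. Of 16 other integrin chains 0 passed and 1 had an unadjusted p under 0.05, and all had mean levels under 7. The lowest p there belonged to ITGA1 at -0.15, ITGA3 at -0.10 and ITGA7 at -0.10, and the other ITGA1 probe sets were at -0.07 and 0.03.

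Genes that switch integrins on from inside the cell were measured for 21 of the 22 listed, and 0 passed by limma, with 4 at an unadjusted p under 0.05 (9.56% of all genes), 10 above 0 and 11 below. RAP1A, the small GTPase that drives integrin activation, was at 0.25 (limma adjusted p = 0.456), and its other probe sets were at 0.11, -0.13 and -0.08. RASGRP2, an exchange factor that loads RAP1, was at -0.20 (adjusted p = 0.466), while its 3 dimmer probe sets gave -0.13, -0.12 and 0.04. SIPA1, which turns RAP1 off, was at -0.18 (adjusted p = 0.524). Of 19 measured genes for signals from bound integrins 0 passed and 1 had an unadjusted p under 0.05. NEDD9, a docking protein of focal adhesion kinases, was at 0.32 (adjusted p = 0.198), and passed when control 1 was left out. ILK, a scaffold at integrin tails, was at -0.18, and the kinase PTK2B at -0.15.

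Of the 5 genes that tie ICAM tails to actin, 0 passed by limma and 0 had an unadjusted p under 0.05. Radixin (RDX) was at 0.14, ezrin (EZR) at -0.14 and alpha-actinin 4 (ACTN4) at 0.11, with adjusted p of 0.643, 0.757 and 0.898. Of 12 other leukocyte adhesion receptors measured, where PECAM1 fell, 4 had an unadjusted p under 0.05 by limma, against 9.56% of all genes. The groups did not overlap for 5 of the 12, against 3114 of the 19775 genes. The tetraspanins CD82 and CD9 were at 0.24 and 0.21 and ALCAM, the ligand of CD6, at 0.21. Their limma adjusted p were 0.421, 0.456 and 0.508. The other CD82 probe set was at 0.15 (limma adjusted p = 0.618). The other ALCAM probe sets were at 0.33 and 0.03 (limma adjusted p = 0.263 and 0.920), and those of CD9 at -0.11 and -0.03, against the sign of its brightest one.

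**Figure D4:**
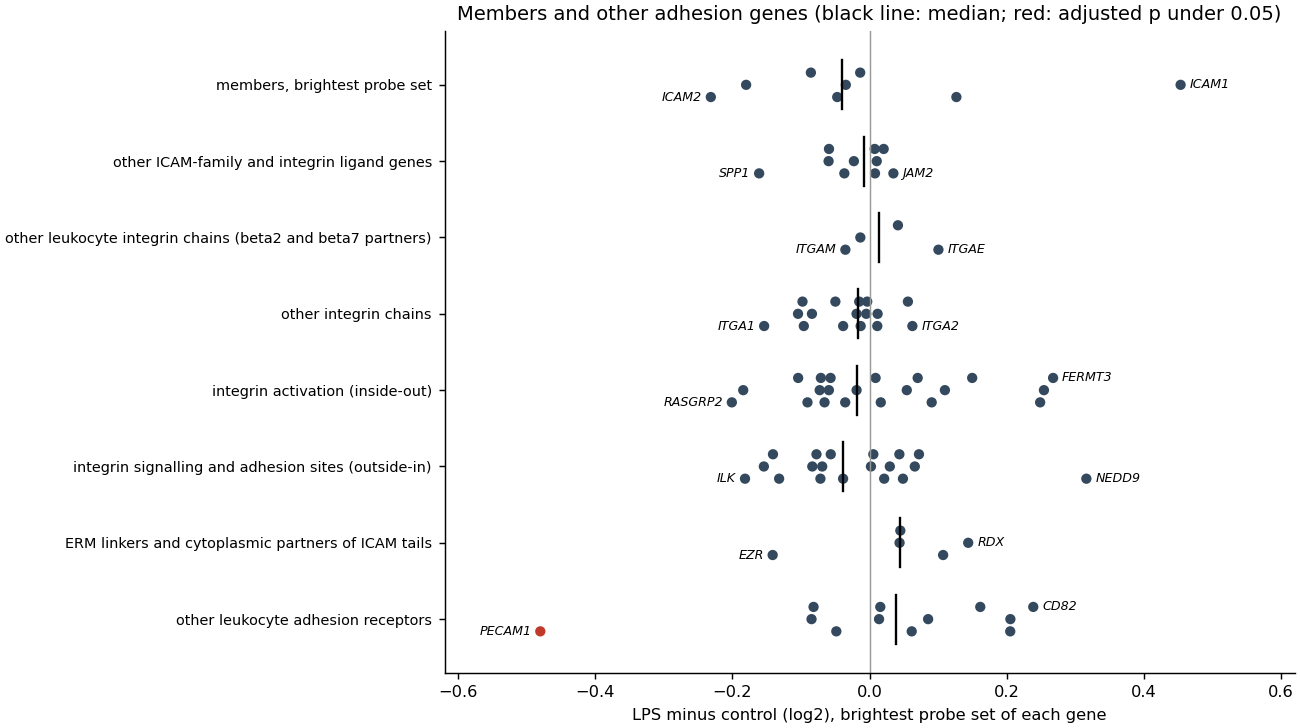
LPS minus control on the log2 scale (x axis) by the brightest probe set of each gene, for the 8 genes and the 7 lists of other adhesion genes (y axis), with 1 point per gene, vertical offsets only for legibility, black lines at the medians and the outermost genes named. ICAM1, at 0.45, lies farthest right and PECAM1, at -0.48 and in red as the 1 gene past the test, farthest left.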

How the data were processed

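RNA of 6 BL-2 samples was measured on Affymetrix arrays, 1 per sample, after biotin labelling by in vitro transcription, per the labels' protocols. The values deposited by the authors are taken as log2, 1 per probe set and array. The log base is inferred from their range; the methods of background correction, summary and normalisation were not given in the labels used here. The number of arrays limits the precision.

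Of 54675 probe sets 62 Affymetrix controls were left out. Gene names came from the platform annotation, checked by gene identifier against RefSeq of GRCh38.p14; 41091 probe sets had 1 symbol, 1801 several and 11721 none. Of the 41091, 41037 matched and 0 symbols changed. LPS and control arrays were compared in 1 fit of the 6 arrays with no covariate (R 4.3.3, limma 3.58.1, eBayes with trend). Tests were two-sided, p-values of all 54613 probe sets were adjusted together (Benjamini-Hochberg), and the threshold was 0.05. A gene in a list was represented by its probe set with the highest mean over the 6 arrays. Array sets were parted at the widest gap, 0.22, in the mean of 18 hybridisation control probe sets, the next gap being 0.081. Named were every probe set of the 8 genes; of each adhesion list the genes that passed and the 3 next by p; and the 3 genes most like a brightest probe set that spans at least 0.5. CD79A, CD22, ICAM4, ZGLP1, FDX2, RAVER1, JAM2, ITGA2, FERMT3, VCAM1 and MADCAM1 were named beyond that rule, after their values were seen. The genes, lists and settings were chosen with earlier results of these data known. Steps were tested on simulated data.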

Additional observations from a re-analysis of the deposited data

How the results depend on the processing

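Each result was recomputed under the other settings: a replicate block, an array set block, 2 filters on dim probe sets (mean above the median of all, and mean of at least 7), scaling by quantiles or by array medians, eBayes without trend and with a robust prior, array weights, no _x_at or _s_at probe sets, a mean over the probe sets of each gene, and each array left out. Of the 23 probe sets 16 kept their direction and their side of the threshold in all settings run for them. ICAM1 202638_s_at stood at 0.48 under both filters but missed the threshold there (limma adjusted p = 0.0592 and 0.0554), and its range with 1 array left out was 0.41 to 0.55. ICAM1 202637_s_at passed at 0.45 with the replicate block, 0.34 with the array set block and 0.53 with array weights, and ranged from 0.38 to 0.58 with 1 array left out. The sign turned for ICAM3 204949_at with array weights (0.064), and for ITGA4 205885_s_at (-0.024) and ITGB1 216178_x_at (-0.015) with the array set block. With 1 array left out it also turned for ICAM3 (-0.14 to 0.070) and for ITGB1 1553678_a_at (-0.19 to 0.015), 216178_x_at (-0.065 to 0.058) and 216190_x_at (-0.054 to 0.010). The cause was not tested.

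The count of passing probe sets among the 23 was 2 with the replicate block, with the array set block and with array weights. It was 0 under both filters and 0 without _x_at and _s_at probe sets, where 18, 14 and 11 were left. Of these, 6, 5 and 2 had an unadjusted p under 0.05 by limma. The share of all probe sets at that level is not given for these fits, so these counts have no background. In the main fit 8 of the 23 were at that level, against 8.08% of all probe sets. Leaving out 1 array gave 0 to 2 passing among the 23. Over all tested probe sets the count was 144, and 498 with the replicate block, 734 with the array set block, 292 after quantile normalisation, 309 with array weights, 82 without _x_at and _s_at probe sets, 265 at an adjusted p under 0.1 and 10 to 374 with 1 array left out. Of the 87 listed adhesion genes 0 to 2 passed with 1 array left out and 0 by the mean over probe sets (11 at an unadjusted p under 0.05 by limma). The share of all genes at that level is not given for the fit of such means, so the 11 have no background either. Whether the replicate numbers pair the arrays was not settled by a check of the values. Deviations of same-numbered LPS and control arrays from their group means, over the 10000 brightest probe sets, correlated at 0.67, -0.28 and 0.43. LPS 2 and LPS 3 correlated best with another number. The values went with the array sets: LPS and control arrays of the same set correlated at 0.37 to 0.67, and those of different sets at -0.71 to -0.26. The same-numbered arrays 1 and 3 share a set, and those numbered 2 do not. The replicate block changed no other call among the 23. Of the 116 recomputed medians of the adhesion lists 114 moved by less than the SD between replicate arrays of the list's median level. That SD is not the error of a median difference. The replicate block, eBayes without trend and the robust prior leave the differences as they are, so medians under them could not move. The count is thus no test of how steady the medians are.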
